A study of Mus musculus with 6 samples.

Results

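Germline genes held silent by DNA methylation were followed in mouse colon mucosa through 31 genes of germ cell development and meiosis. The members are a fixed list of gene names, and every array probe whose platform gene symbol was one of the 31 was taken, with no filter on dim probes. This gave 43 probes of 29 genes among the 45135 probes of the array. The platform annotation names no probe for Rpl10l, a testis paralog of a ribosomal protein, or for Fkbp6, a cochaperone of the piRNA pathway, and these 2 genes are not analysed here.

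Total RNA was measured from 6 mice of strain background C57/B6 at 5 months of age, each on 1 Illumina bead array. All 6 carried APC(Min/+), a mutation that predisposes to intestinal tumours, and Dnmt3a(2lox/2lox), floxed alleles of a de novo DNA methyltransferase. The 3 Cre-negative mice were the controls, and the 3 Cre-positive mice also carried a Cre transgene, Cre(-/+), under a modified promoter of a fatty acid binding protein gene of gut epithelium, spelled Fabpl(4x at -132)-Cre or Fabp-Cre in the labels. Per the design, Cre removed Dnmt3a from 30 to 50% of the mucosa cells, and the remaining cells, with all cell types in which the promoter is silent, kept the gene. In such bulk samples fewer cells expressing a gene and less RNA per cell cannot be told apart.

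Detection of a probe on an array required both a deposited detection p-value under 0.05 and a signal higher than that array's background level. The background level ran from 84.9 to 90.7 intensity units and the dimmest detected probe of an array from 88.2 to 95.1 units. Between 19339 and 21358 probes were detected per array. Cre-positive replicate 3 stood apart, with a mean signal of 285 against 353 to 379 units on the other arrays and correlations with them of 0.925 to 0.9498, where those 5 arrays correlated with each other at 0.978 or above. It was also the only female among the Cre-positive mice, whereas Cre-negative replicates 2 and 3 were female, as read from Xist and Eif2s3y. The targeted gene gave no check of the labels, since none of the 3 Dnmt3a probes was detected on any array (signals 76.5 to 91.5), and the position of these probes relative to the floxed exons was not checked. As to the labelled tissue, 16 of 17 measured colon epithelial genes were detected on at least 3 arrays, among them Muc2, the colon's main secreted mucin, and Krt20, a keratin of mature colonocytes. Detection on at least 3 arrays held for 11371 of the 19032 genes with a probe over the whole array. Leukocyte markers were detected on at least 3 arrays for 10 of 12 genes. Of their 23 probes 9 were lower (2.47% of all probes) and 0 higher (2.69% of all probes) in Cre-positive mucosa at an unadjusted p under 0.05. After adjustment over all probes by limma, 0 passed in either direction.

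DNA methylation at the promoters of many germ cell genes keeps them off in body tissues, and the mark is laid down in the early embryo by the de novo methyltransferases and copied at each division by Dnmt1 with Uhrf1. Many of these promoters are rich in CpG, the dinucleotide that carries the methyl group, and are known in mouse to be bound by E2f6 with Mga and Max, which read E2F-type and E-box letters. The genes serve the piRNA pathway, which silences transposons in germ cells, and the pairing and recombination of chromosomes in meiosis. Expression of such genes in an adult gut would therefore be out of place, and they are commonly used as a readout of lost promoter methylation.

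The promoter windows of the members are shown for 5 genes to make that CpG content visible, since no methylation was measured in these samples. Each window runs from 250 bases before to 50 after the start of the gene in RefSeq, assembly GRCm38.p6, read 5′ to 3′ on the strand of the gene, with every CpG in capitals. Ddx4 (chr13:112652261-112652560, minus strand) has the most CpGs of any member, 38. Dazl (chr17:50293571-50293870, minus strand) has 28. Tdrd1 (chr19:56826025-56826324, plus strand) and Sohlh2 (chr3:55181794-55182093, plus strand), with 25 and 17, are the windows of genes detected on several arrays. Rhox5 (chrX:37754358-37754657, plus strand) has 5 and shows a CpG-poor member.
Ddx4: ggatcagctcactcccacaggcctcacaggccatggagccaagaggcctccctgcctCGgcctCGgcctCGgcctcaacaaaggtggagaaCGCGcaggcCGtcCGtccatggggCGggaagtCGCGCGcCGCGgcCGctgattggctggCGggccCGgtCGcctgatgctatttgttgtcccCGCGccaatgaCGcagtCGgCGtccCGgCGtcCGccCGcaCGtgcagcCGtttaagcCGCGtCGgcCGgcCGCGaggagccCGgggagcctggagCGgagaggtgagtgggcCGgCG
Dazl: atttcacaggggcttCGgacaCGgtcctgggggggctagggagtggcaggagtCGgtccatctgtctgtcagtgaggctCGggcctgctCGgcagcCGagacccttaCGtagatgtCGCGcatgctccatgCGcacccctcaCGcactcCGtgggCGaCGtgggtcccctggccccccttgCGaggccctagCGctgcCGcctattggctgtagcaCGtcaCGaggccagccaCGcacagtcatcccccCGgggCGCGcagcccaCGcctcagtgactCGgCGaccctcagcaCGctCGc
Tdrd1: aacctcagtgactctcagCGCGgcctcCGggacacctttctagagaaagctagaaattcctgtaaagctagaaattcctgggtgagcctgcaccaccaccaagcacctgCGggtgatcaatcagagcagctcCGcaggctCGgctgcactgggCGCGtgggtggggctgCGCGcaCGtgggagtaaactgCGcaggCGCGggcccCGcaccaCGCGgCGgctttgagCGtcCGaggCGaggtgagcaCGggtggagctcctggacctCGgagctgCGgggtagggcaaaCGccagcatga
Sohlh2: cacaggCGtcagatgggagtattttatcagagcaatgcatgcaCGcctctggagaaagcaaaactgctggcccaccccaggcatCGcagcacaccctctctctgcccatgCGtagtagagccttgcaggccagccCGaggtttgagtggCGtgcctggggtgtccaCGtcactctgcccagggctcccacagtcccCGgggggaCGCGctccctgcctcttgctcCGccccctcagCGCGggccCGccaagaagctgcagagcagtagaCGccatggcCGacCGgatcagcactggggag
Rhox5: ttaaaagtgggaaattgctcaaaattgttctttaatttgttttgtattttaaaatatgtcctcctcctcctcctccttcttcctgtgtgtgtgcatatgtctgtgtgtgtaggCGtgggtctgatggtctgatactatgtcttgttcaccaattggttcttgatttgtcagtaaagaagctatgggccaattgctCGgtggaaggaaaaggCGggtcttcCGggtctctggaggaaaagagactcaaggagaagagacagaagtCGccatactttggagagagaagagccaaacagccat

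RefSeq windows were found for 28 of the 31 genes, 33 windows in all, and the 2 windows each of Hormad1, Stk31 and Fkbp6 overlap, as do 2 of the 3 windows of Tdrd1. The median member window held 20 CpGs against 13 over the 21263 windows of protein-coding genes. The ratio of observed to expected CpGs had a median of 0.733 in the members, from 0.216 to 1.08, and of 0.567 in protein-coding windows. The letters CACGTG, the E-box that reads the same on both strands, stood in the windows of 14 of 28 member genes (50.0%) and of 8.91% of 17492 protein-coding genes. In Ddx4 it begins 29 bases before the start, and in the Tdrd1 window shown it begins 77 bases before the start of the gene. The E2F-type letters GCGGGAAA or GGCGGGAA, searched on both strands and overlapping each other by 7 letters, stood in 5 member genes (17.9%) and 4.10% of protein-coding genes. The 5 were Ddx4, Hormad1, Slc25a31, Sycp3 and Tex14, and all but Tex14 held the E-box as well. The windows of Dazl, Sohlh2 and Rhox5 shown here hold none of these letters. These matches describe the windows and are not binding sites measured in colon.

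**Figure D1:**
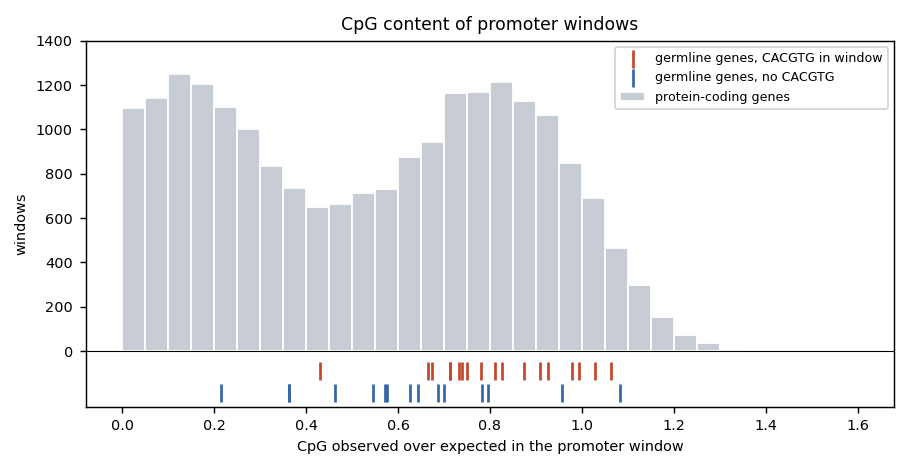
Grey bars give the number of RefSeq promoter windows of protein-coding genes (y axis) by the ratio of observed to expected CpGs (x axis, to 1.6), and each tick below is 1 of the 33 windows of the germline genes, red with the letters CACGTG and blue without. Most germline ticks lie on the CpG-rich side, from 0.216 to 1.08 with a median of 0.733.

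Across the 6 arrays the germline genes stayed close to background in both groups. Of their 43 probes 15 (34.9%), from 12 genes, were detected on at least 1 array, where 59.6% of all probes were. On at least 3 arrays 3 member probes were detected, against 46.9% of all probes, and on all 6 arrays 0, against 34.6% of all probes. The highest member signal on any array lay 23.7 units above the background of its array. Member probes lay below background at a small p more often than they were detected above it, in 69 (26.7%) against 30 (11.6%) of the 258 pairs of a probe and an array, where 15.8% and 45.9% of all pairs were so. Between 3 and 7 member probes were detected per array, the fewest in Cre-positive replicate 3.

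The question put to these genes was whether more of them were detected where Dnmt3a had been removed. Over the 129 pairs of a probe and an array in each group, 16 were detected in Cre-negative (12.4%) and 14 in Cre-positive mucosa (10.9%). Over all probes the shares were 46.6% and 45.3%. Detection was on more Cre-positive than Cre-negative arrays for 5 member probes, which was the case for 8.61% of all probes, and on fewer for 7, as for 11.9% of all probes. It was in Cre-positive mucosa alone for 4 member probes (4.97% of all probes) and in Cre-negative mucosa alone for 5 (5.51% of all probes). At a detection p under 0.01 there were 12 detections in each group. Without the condition on background, which also counts probes below it, there were 46 in Cre-negative and 53 in Cre-positive mucosa. On at least 1 array these rules detected 27.9% and 86.0% of member probes, against 52.8% and 92.4% of all probes. Shares of all probes by group were not taken under them, so these counts are not read as a group difference. Leaving out 1 Cre-positive array gave 10, 7 and 11 detections on the other 2 without replicate 1, 2 and 3, against 16 on the 3 Cre-negative arrays. Leaving out 1 Cre-negative array likewise gave 10, 11 and 11 on the other 2, against 14 on the 3 Cre-positive arrays. Counts on 2 arrays cover fewer pairs than those on 3 and are lower for that reason alone.

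**Figure D2:**
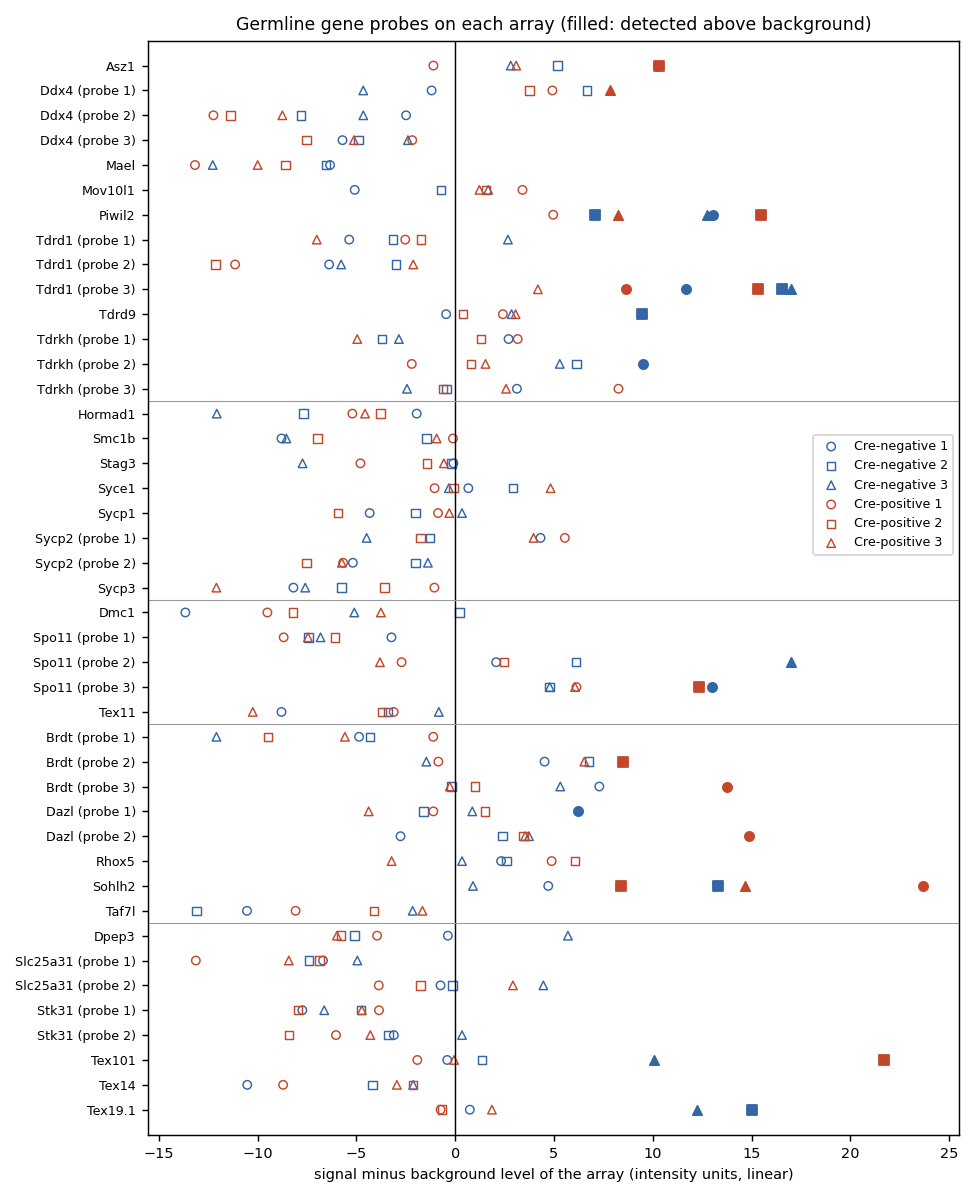
Each row is 1 probe of a germline gene, grouped by role (piRNA pathway, chromosome axis, recombination, gene regulation, others, from top to bottom), and each symbol is the linear signal on 1 array minus the background level of that array, filled where the probe was detected. Blue Cre-negative and red Cre-positive symbols intermix around 0, and no symbol lies beyond 23.7 units.

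The linear model of limma over all 45135 probes gave 0 member probes higher and 0 lower in Cre-positive mucosa at an adjusted p under 0.05, beside 1 higher (0.00222%) and 0 lower (0%) of all probes. The smallest adjusted p of a member was 0.800. At an unadjusted p under 0.05, 0 member probes were higher (2.69% of all probes) and 2 were lower (2.47% of all probes), 1 of Ddx4 and 1 of Spo11. Log2 differences, Cre-positive minus Cre-negative, ran from -0.40 to 0.42 with a median of 0.01, beside 0.01 over all probes, and 22 were positive and 21 negative. The -0.40 was of that Ddx4 probe, which lay below background on every array. The 95% intervals of these differences reached from -0.78 to 0.86 across the 43 probes. An offset of 16 units was added before the logarithm, so log2 differences understate the fold of genes this dim. On the linear scale, group means differed by -10.8 to 8.25 units per probe.

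**Figure D3:**
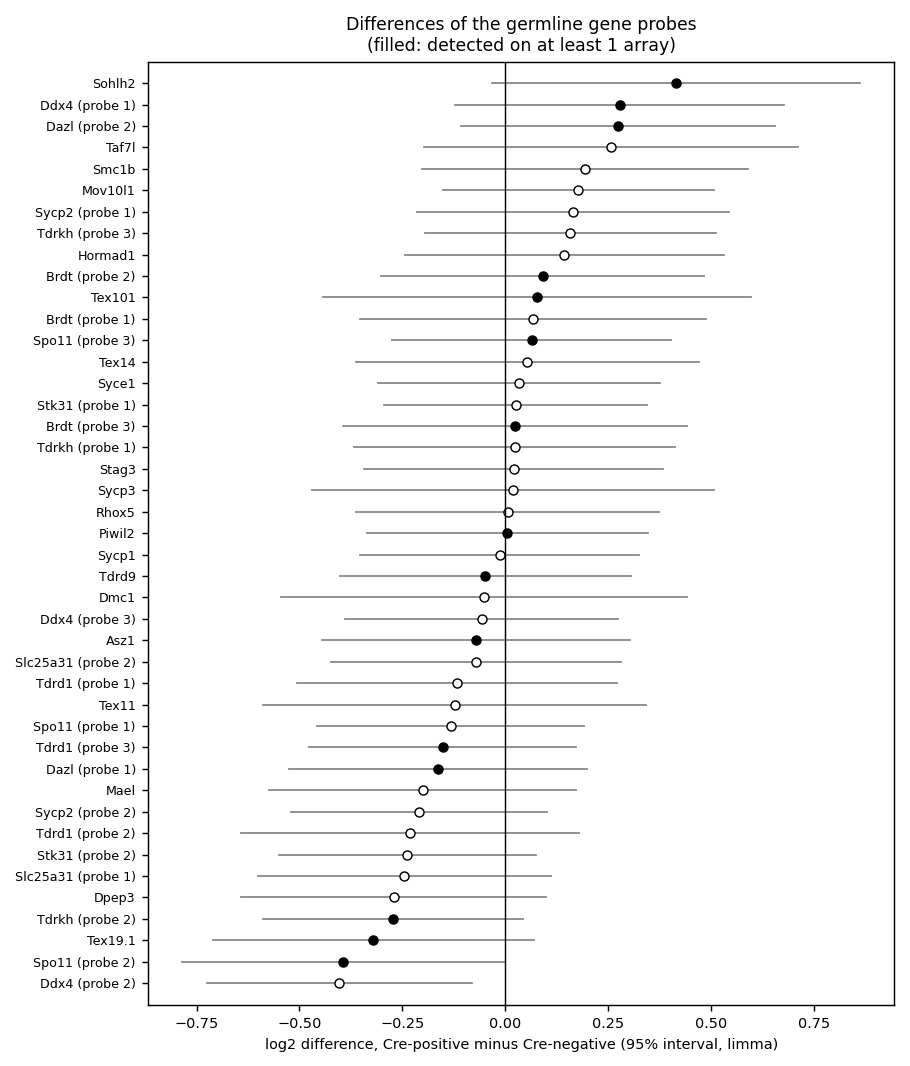
Points give the log2 difference of each germline probe, Cre-positive minus Cre-negative, and bars its 95% interval from limma (n = 3 mice a group). Filled points were detected on at least 1 array. All intervals but those of 1 Ddx4 and 1 Spo11 probe span 0, and the intervals reach from -0.78 to 0.86.

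The piRNA pathway was measured by 14 probes of 8 genes, of which 6 genes were detected somewhere. Piwil2, an Argonaute protein that carries piRNAs, was detected on 5 of 6 arrays, with signals of 101.0, 95.7 and 103 units in Cre-negative replicates 1 to 3 and 94.1, 106 and 93.1 in Cre-positive replicates 1 to 3. The groups overlapped, and its log2 difference was 0.01 ± 0.15 (SE, adjusted p 0.996 by limma). The sign of that difference turned to -0.02 with median scaling and to -0.003 with loess.

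Tdrd1, a Tudor protein that binds PIWI proteins, was detected through 1 of its 3 probes, at 99.6, 105 and 108 units in Cre-negative and 97.8, 105 and 89.1 in Cre-positive mucosa, all arrays but Cre-positive replicate 3. Its log2 intensity was 5.46 ± 0.08 in Cre-negative and 5.31 ± 0.14 in Cre-positive mucosa (SD, n = 3), a difference of -0.15 ± 0.14 (SE, adjusted p 0.833 by limma). The groups overlapped, and the other 2 probes, annotated to another RefSeq transcript, were detected on none.

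Asz1, a scaffold protein of the same pathway, was detected in Cre-negative replicate 1 at 98.2 units and in Cre-positive replicate 2 at 100.5, with 93.8 and 93.5 on the other Cre-negative arrays and 88.1 and 88.0 on the other Cre-positive ones. Tdrd9, an RNA helicase, was detected in Cre-negative replicate 2 alone, with signals of 87.5, 98.1 and 93.5 units in Cre-negative and 91.6, 90.5 and 87.9 in Cre-positive mucosa. Tdrkh, a mitochondrial Tudor protein needed for the trimming of piRNAs, was detected through 1 of 3 probes and in Cre-negative replicate 1 alone. Its signals at that probe were 97.5, 94.8 and 96.0 in Cre-negative and 87.0, 90.9 and 86.4 in Cre-positive mucosa, so the groups did not overlap. The estimated bound was 1.07-fold lower in Cre-positive mucosa (95% interval of the log2 difference -0.59 to 0.04, adjusted p 0.800 by limma). Its other 2 probes had overlapping groups.

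Ddx4, the Vasa helicase that marks germ cells, was detected by 1 of 3 probes on a single array, Cre-positive replicate 3, at 92.7 units. That probe read 86.8, 95.3 and 86.0 units in Cre-negative and 94.1 and 93.9 in Cre-positive replicates 1 and 2, values that overlap. Another Ddx4 probe, detected on no array, gave 85.5, 80.8 and 86.0 units in Cre-negative and 76.9, 78.8 and 76.1 in Cre-positive mucosa. All 6 values lay below the background of their arrays. The log2 difference of that probe, -0.40 and the lowest among member probes, is therefore not read as a change in expression. Mael, a high mobility group protein of the pathway, and Mov10l1, the helicase that feeds piRNA precursors to the pathway, were detected on no array, with signals of 74.9 to 82.1 and 82.9 to 92.6 units.

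No gene of the meiotic chromosome axis was detected on any array. The 8 probes of 7 genes read between 72.8 and 94.7 units. They stand for Sycp1, Sycp2, Sycp3 and Syce1 of the synaptonemal complex, which zips paired chromosomes together, for Hormad1, an axis protein that marks unpaired chromosomes, and for the meiotic cohesin subunits Stag3 and Smc1b. Their log2 differences ran from -0.21 to 0.19 with a median of 0.03. One of the Sycp2 probes had all Cre-positive values below the Cre-negative ones after normalization, but not in the unprocessed signals, which were 82.8, 86.6 and 89.3 against 83.5, 82.6 and 79.1 units.

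Of the recombination genes, Spo11, the enzyme that makes the DNA breaks of meiosis, was detected by 2 of 3 probes. One was detected in Cre-negative replicate 1 and Cre-positive replicate 2, with 100.9, 93.4 and 95.4 units in Cre-negative and 95.3, 102.5 and 90.9 in Cre-positive mucosa. The other was detected in Cre-negative replicate 3 alone, with 90.02, 94.7 and 108 units in Cre-negative and 86.5, 92.6 and 81.1 in Cre-positive mucosa. Its log2 difference was -0.39 ± 0.17 (SE, unadjusted p 0.0483, adjusted p 0.800 by limma), the groups overlapped, and the estimated bound was 1.09-fold lower in Cre-positive mucosa. Dmc1, the meiotic recombinase, and Tex11, an X-linked protein of crossover formation, were detected on no array, at 74.3 to 88.8 and 74.6 to 89.8 units.

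Among regulators of gene expression, Sohlh2 was the member detected most often in Cre-positive mucosa. Sohlh2 is a transcription factor of early sperm and egg cell differentiation. Its signals were 92.7, 102 and 91.6 units in Cre-negative replicates 1 to 3, with detection on replicate 2 alone, and 113, 98.5 and 99.5 in Cre-positive replicates 1 to 3, with detection on all 3. The groups overlapped, since Cre-negative replicate 2 lay above Cre-positive replicates 2 and 3. The log2 intensity was 5.17 ± 0.24 in Cre-negative and 5.58 ± 0.30 in Cre-positive mucosa (SD, n = 3). The difference of 0.42 ± 0.20 (SE, 95% interval -0.03 to 0.86) was the highest among member probes and did not pass (unadjusted p 0.0652, adjusted p 0.800 by limma).

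Dazl, an RNA-binding protein that licenses germ cells, was detected by each of its 2 probes on 1 array, and the arrays differed. One was detected in Cre-negative replicate 1, with 94.2, 87.0 and 91.5 units in Cre-negative and 88.1, 91.7 and 80.5 in Cre-positive mucosa. The other was detected in Cre-positive replicate 1, with 85.2, 91.0 and 94.4 units in Cre-negative and 104, 93.6 and 88.4 in Cre-positive mucosa. Its estimated bound was 1.10-fold higher in Cre-positive mucosa (95% interval of the log2 difference -0.11 to 0.66, adjusted p 0.800 by limma). The 2 Dazl probes thus had differences of opposite sign, -0.16 and 0.27 on the log2 scale.

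Brdt, a bromodomain protein of spermatocytes and spermatids, was detected by 1 probe in Cre-positive replicate 2 and by another in Cre-positive replicate 1. The former read 92.5, 95.4 and 89.2 units in Cre-negative and 88.3, 98.7 and 91.4 in Cre-positive mucosa. The latter read 95.2, 88.4 and 96.0 units in Cre-negative and 103, 91.1 and 84.6 in Cre-positive mucosa. The remaining Brdt probe was detected on no array. Each array of detection was thus a Cre-positive one, but the probes did not share it, and the log2 differences were 0.09 ± 0.17 and 0.02 ± 0.18 (SE). Taf7l, a testis paralog of a general transcription factor, and Rhox5, an X-linked homeobox gene, were detected on no array, at 75.5 to 88.5 and 81.7 to 96.2 units.

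Of the remaining 6 measured genes 2 were detected. Tex19.1, which holds back transposons in germ cells and placenta, was detected in Cre-negative replicates 2 and 3, at 104 and 103 units, and read 88.7 in Cre-negative replicate 1. It read 88.4, 89.5 and 86.7 units in Cre-positive mucosa, where it was not detected. The estimated bound was 1.11-fold lower there (log2 difference -0.32 ± 0.17, SE, adjusted p 0.800 by limma). The groups overlapped through Cre-negative replicate 1.

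Tex101, a surface glycoprotein of germ cells, was detected in Cre-negative replicate 3 at 100.7 units and in Cre-positive replicate 2 at 112, with 87.5 and 90 on the other Cre-negative and 87.3 and 84.8 on the other Cre-positive arrays. It was thus seen in 1 mouse of each group. Tex14, of the bridges between germ cells, Slc25a31, a testis ADP/ATP carrier, Dpep3, a dipeptidase, and Stk31, a Tudor domain kinase, were detected on no array, with signals between 76.0 and 96.4 units. One of the 2 Stk31 probes had all Cre-positive signals (83.1, 81.7 and 80.6 units) below the Cre-negative ones (84.8, 85.3 and 91.0 units), below or near background throughout.

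In total the groups did not overlap on the log2 scale for 1 member probe with higher values in Cre-positive mucosa (6.87% of all probes) and 4 with lower values (5.52% of all probes). The 1 was of Mov10l1, whose unprocessed signals overlapped, at 82.9, 87.9 and 92.3 units in Cre-negative and 92.6, 91.7 and 86.1 in Cre-positive mucosa. The 4 were of Ddx4, Stk31, Sycp2 and Tdrkh, of which the Sycp2 probe alone also overlapped in unprocessed signals. Only the Tdrkh probe among these was detected on any array.

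Other genes of germ cells and pluripotent cells were read in the same way, 66 of a list of 72 having 105 probes. The limma fit gave 0 higher and 0 lower at an adjusted p under 0.05, with 0 at an unadjusted p under 0.05. Groups did not overlap for 11 of the 105 probes with higher values (6.87% of all probes) and 4 with lower values (5.52% of all probes), most of them not named here. At least 1 probe was detected on at least 3 arrays for 11371 of all 19032 genes with a probe and for 28 of the 66 genes here. Among them were Dazap1, an RNA-binding protein used in many tissues (3217 units), Tdrd7, a Tudor protein also found in the lens (983 units), Kit, a receptor of germ, mast and pacemaker cells (670 units), and the meiotic cohesin Rec8 (158 units). Their differences were 0.37 ± 0.23, 0.01 ± 0.22, -0.08 ± 0.21 and 0.18 ± 0.27 on the log2 scale (SE). Tuba3b, a testis tubulin that shares sequence with Tuba3a, was the 1 gene among these 28 whose groups did not overlap at its brightest probe, at 5.80 ± 0.09 against 5.53 ± 0.003 (SD, n = 3, adjusted p 0.800 by limma), although its unprocessed signals overlapped. Of the probes detected on 1 array, 1 of the pluripotency factor Nanog (-0.32 ± 0.15) and 1 of the PIWI gene Piwil4 (0.18 ± 0.14) also had non-overlapping groups.

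Repressors and enzymes that act on DNA methylation, a list that includes Tet3, were mostly detected. Of 28 repressors and methylation enzymes 25 had probes and 21 were detected on at least 3 arrays, beside 11371 of all 19032 genes with a probe. By limma 0 probes of the list passed in either direction. Among the 21 were E2f6, Mga and Max, named above, and L3mbtl2 and Pcgf6. At an unadjusted p under 0.05, 6 of the 53 probes were higher (2.69% of all probes) and 1 was lower (2.47% of all probes). Groups did not overlap for 8 with higher values (6.87% of all probes) and 4 with lower values (5.52% of all probes), and 30 differences were positive and 23 negative, with a median of 0.05. Taking the brightest probe of each gene, 18 of 21 were higher in Cre-positive mucosa, with a median log2 difference of 0.21, and 5 had non-overlapping groups. Over all probes 23808 of 45135 differences were positive, with a median of 0.01, or 0.02 over probes detected on at least 3 arrays. The brightest probe was not taken for all genes of the array, so the 18 of 21 has no like share beside it. The 5 with non-overlapping groups were Dnmt1, Dnmt3b, Uhrf1, Ehmt2, a histone H3 lysine methyltransferase, and Trim28, a corepressor. They stood at 0.51 ± 0.22, 0.54 ± 0.21, 0.57 ± 0.16, 0.49 ± 0.21 and 0.36 ± 0.14 (SE, adjusted p 0.800 for each by limma). Without Cre-positive replicate 3 the values for Dnmt1, Dnmt3b and Ehmt2 were 0.26, 0.30 and 0.25, and those for Uhrf1 and Trim28 were 0.49 and 0.39. A dimmer probe of Uhrf2 and one of the heterochromatin protein gene Cbx3 had non-overlapping groups in the opposite direction, at -0.69 ± 0.28 and -0.55 ± 0.30 (SE), against 0.41 and 0.22 at the brightest probes, so the probes of those genes disagreed. Without that array they stood at -0.35 and -0.14. Probes of Ehmt1 and Hdac2 detected on 1 array had non-overlapping groups as well, at -0.27 ± 0.15 and 0.30 ± 0.16 (SE). Of 14 probes of dividing cell markers 2 were higher (2.69% of all probes) and 0 lower (2.47% of all probes) at an unadjusted p under 0.05, and 0 after adjustment by limma. The 2 were of the replication genes Cdc45 (0.77 ± 0.15) and Mcm2 (0.46 ± 0.14). Over the 14 probes 9 differences were positive and 5 negative, from -0.44 to 0.77 with a median of 0.05. Leukocyte markers had a median difference of -0.31 over 23 probes, 18 negative and 5 positive. Among brightest probes, Cd3e, Cd3g, Cd52, Fcer1g and Tyrobp stood at -1.08, -1.43, -0.87, -1.20 and -0.73 (adjusted p 0.800 for each by limma), with non-overlapping groups. Lyz2, Cd74, Ms4a1 and Ptprc stood at -0.79, -0.37, -0.11 and -0.07 and Aif1 at 0.42, with overlapping groups. The part of these cell types in the values of the repressors was not tested.

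The share of probes detected per array was 6.98 to 16.3% for the germline genes, 21.9 to 29.5% for the other germ cell genes, 54.7 to 60.4% for the repressors, 52.2 to 73.9% for leukocyte markers, 80.8 to 88.5% for colon epithelial genes and 42.8 to 47.3% for all probes. Markers of stroma, muscle and vessels stood at 17.9 to 25%, overlapping the other germ cell genes. Lists differ in the probes they hold and these shares were not tested.

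**Figure D4:**
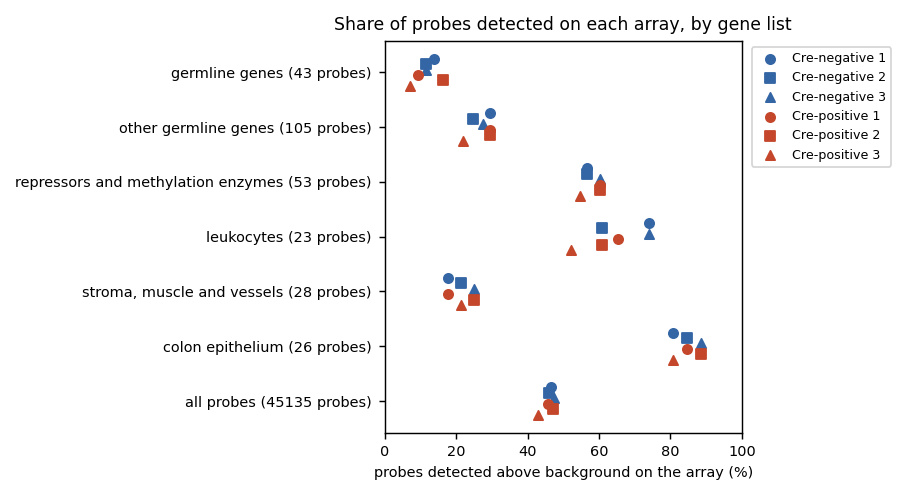
Each symbol is the percentage of a list's probes detected on 1 array (x axis), blue for Cre-negative and red for Cre-positive mice, with 1 row a list. The germline genes form the lowest row at 6.98 to 16.3%, the groups overlap, and Cre-positive replicate 3 is the lowest array of that row.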

How the data were processed

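RNA of 6 mice was labelled with biotin and hybridised to Illumina mouse bead arrays, per the labels' protocols. The authors deposited linear, unprocessed intensities, 1 mean per probe with background left in, each followed by a detection p-value. They also deposited a table of processed intensities; its normalization is not given in the sources used here. Columns of the latter had medians of 93.2, 93.3 and 92.9 (Cre-negative) and 93.3, 93.1 and 94.8 (Cre-positive), and it served as an alternative. From the values, the deposited p-value is 2-sided about background: it was also small for 6320 to 7410 dim probes per array, so detection also required a signal above the median of probes with p over 0.97.

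With limma 3.58.1 in R 4.3.3, intensities were corrected by normexp (saddle-point, offset 16), quantile normalized and taken to log2. The model (lmFit, eBayes, 2-sided, Benjamini-Hochberg) was fitted to all 45135 probes without a filter. It was also run on simulated data with changes set only in probes detected on every array, which no member probe was. That run therefore says nothing of the power for the members. For a probe undetected in 1 group, the bound divides the other group's mean by the mean, over the undetected group's arrays, of the larger of each array's dimmest detected value and the probe's own. It is an estimate from means that include undetected arrays and sets no minimum on the true change. It was below 1 for 1 probe each of Dazl (0.92), Brdt (0.97) and Tdrd9 (0.98). For another Brdt probe it was 1.01, and for 1 of Ddx4 1.05. Probes were named from the platform annotation (34773 with 1 symbol, 18 with several, 10344 with none) and 34695 were matched by gene number to RefSeq. The arrays carry 1 mouse each, and their number limits the precision. Every member is named, with values on each array for detected probes. Of the other germ cell genes and the repressors, those past the threshold, detected ones with non-overlapping groups and Dnmt3a are named by rule. Other genes of these and of the marker lists were chosen after their values were seen. The members and lists were chosen with earlier results of these data known. Alternatives are given in the closing section. The pairing of replicate numbers was checked, and same-numbered mice did not deviate together.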

Additional observations from a re-analysis of the deposited data

How the results depend on the processing

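All 18 alternative fits gave 0 germline probes past the threshold, and 0 probes of the other germ cell genes and repressors. The count over all probes was 0 without background correction, with an offset of 50 and with the authors' values, ran from 0 to 2 when 1 array was left out, and was 9 with sex as a term and Cre-positive replicate 3 left out, a setting chosen after seeing the data like its removal before normalization. The median log2 difference of the germline probes, 0.01, was -0.0176 with array weights, ran from -0.0515 to -0.00751 when 1 array was left out, was -0.0220 when Cre-positive replicate 3 was removed ahead of normalization, and was -0.0255 when sex was also a term. The cause was not tested. The difference of Piwil2, 0.01, turned to -0.0222 with median scaling, -0.00330 with loess, -0.0721 with array weights, -0.0334 with that array removed ahead of normalization and -0.118 when sex was also a term, and ran from -0.0574 to 0.106 when 1 array was left out, below 0 without Cre-negative replicate 2 and without Cre-positive replicates 2 or 3. The differences of Sohlh2, Tdrd1, Tex19.1 and Spo11 kept their sign in every fit that held them but not their size. That of Sohlh2 (0.42) was 0.15 without background correction, and those of Tdrd1 (-0.15), Tex19.1 (-0.32) and Spo11 (-0.39) were -0.0033, -0.06 and -0.10 with sex as a term and Cre-positive replicate 3 left out. That setting turned the sign of 16 of the 43 germline probes, sex as a term alone 8, and leaving out 1 array 5 to 9. Germline probes detected on at least 1 array numbered 15, 37 if dim probes with a small p were counted too, 24 by signal above the 95th percentile of probes of middling p, and 13 or 14 without 1 array. The 15, 37 and 24 were 34.9%, 86.0% and 55.8% of germline probes, where 59.6%, 92.4% and 77.3% of all probes were detected. Without 1 array the shares were 30.2 or 32.6% of germline and 58.0 to 58.5% of all probes. Numbers pair no samples here, with correlations of -0.13, -0.10 and 0.03 for same-numbered mice. With the replicate block 1 probe passed over all probes, and the median stayed at 0.01. The signals of the germline genes lie at background, so differences below it were not measurable, and whether each probe responds to its transcript was not tested.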

Other observations

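The E-box letters were also frequent among CpG-rich member windows. Of the 19 member windows with at least 20 CpGs, 15 (78.9%) held CACGTG, against 11.8% of the 7641 protein-coding windows with as many CpGs, and 5 (26.3%) held an E2F-type motif, against 6.70%. Several of these member windows overlap within a gene, and no test was made. Of the 3 genes detected on at least 3 arrays, Tdrd1 has the E-box, Sohlh2 has none of these letters, and no window was read for Piwil2.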
